A study of Mus musculus with 15 samples.

Results

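The AP-1 transcription factor genes were followed in invariant natural killer T (iNKT) cells, T cells that recognise lipids presented by CD1d, sorted from 4 lymphoid tissues of the mouse. The 10 genes were listed by name, of 48795 genes in the files: Fos, Fosb and Fosl2 (Fos proteins), Jun, Junb and Jund (Jun proteins), Batf and Batf3 (BATF proteins), Atf3 and Maff. All animals were WT C57BL/6 mice aged 6 weeks and none was treated, so that the groups differ in tissue and in its preparation: thymus, spleen and mesenteric lymph node (mLN) with 4 samples each, and inguinal lymph node (iLN) with 3. Sorted cells bound TCRβ antibody and the PBS57-loaded CD1d tetramer and were negative for B220, CD11b, CD11c and CD8. Replicates 1 and 2 form the second batch (7 samples) and replicates 3 and 4 the first (8 samples). These batches were inferred from the prefix and lane in the sample titles, which give neither their nature nor their order. iLN replicate 1 was not analysed here, so that the second batch holds 1 iLN sample. The labels do not say whether a sample is 1 mouse or a pool. Only LNs were digested, for 15 min at 37 °C with collagenase, DNAse and NADase, while thymus and spleen were pressed through a strainer. LN tissue and digestion therefore cannot be told apart in any comparison of LNs with spleen or thymus.

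AP-1 is a dimer of basic leucine zipper proteins that binds short palindromic DNA elements. Jun proteins pair with themselves or with Fos proteins, whereas Fos proteins need a Jun partner, and BATF proteins pair with Jun proteins and act together with IRF4 in T cells. Fos, Fosb, Jun, Junb and Atf3 are known as immediate-early genes, transcribed within minutes of TCR signals or of stress such as warming and enzymatic dissociation, and their mRNAs are short-lived. In T cells AP-1 cooperates with NFAT at cytokine genes.

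Promoter sequence is shown for the 4 genes whose level was higher in LNs, because immediate-early promoters are read through short elements close to the start site. The RefSeq sequences (GRCm38.p6) cover the 250 bases before the annotated start, 5′ to 3′ on the gene's strand. Capitals mark TGACG, the core of the cAMP response element (CRE), or TGACATCA, the CRE-like variant that was searched for.
Fos, chr12:85473640-85473889, plus strand: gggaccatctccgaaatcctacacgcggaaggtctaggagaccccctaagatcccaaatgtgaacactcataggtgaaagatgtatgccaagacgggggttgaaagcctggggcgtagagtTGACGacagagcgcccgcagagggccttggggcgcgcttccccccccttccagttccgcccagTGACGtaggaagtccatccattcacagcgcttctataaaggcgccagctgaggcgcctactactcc
Fosb, chr7:19310046-19310295, minus strand: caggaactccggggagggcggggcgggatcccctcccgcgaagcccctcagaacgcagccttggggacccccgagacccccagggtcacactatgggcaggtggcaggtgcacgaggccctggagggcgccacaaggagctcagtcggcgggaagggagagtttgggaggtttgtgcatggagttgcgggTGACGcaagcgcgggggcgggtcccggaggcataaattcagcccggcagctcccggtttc
Jun, chr4:95052223-95052472, minus strand: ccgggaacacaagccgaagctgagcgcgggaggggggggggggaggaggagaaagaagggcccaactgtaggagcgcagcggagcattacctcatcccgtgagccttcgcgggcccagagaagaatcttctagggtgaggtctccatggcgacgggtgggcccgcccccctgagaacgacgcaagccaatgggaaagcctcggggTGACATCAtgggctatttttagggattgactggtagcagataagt
Junb, chr8:84978749-84978998, minus strand: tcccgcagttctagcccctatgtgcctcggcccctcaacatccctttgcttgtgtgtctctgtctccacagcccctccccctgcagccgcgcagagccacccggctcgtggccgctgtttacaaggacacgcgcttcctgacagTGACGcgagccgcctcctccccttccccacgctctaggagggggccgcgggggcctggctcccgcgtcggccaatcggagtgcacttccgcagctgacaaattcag

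TGACG was present at −129 and −66 from the start in Fos, at −60 in Fosb and at −106 in Junb, and TGACATCA at −45 in Jun, counted to the first base of the match. The same windows of all 32851 mouse promoters held TGACG on either strand in 17.8% and TGACATCA in 2.93%. Among the other members, TGACG was also found in Batf (−98) and in Atf3 (−7, minus strand), while Maff, with 3 promoters, had the full CRE TGACGTCA (1.55% of promoters) at −29 in 1 of them. Another Maff promoter had TGACATCA at −45, the same position as in Jun, and TGACG at −122 on the minus strand. GAANNTTC, a short form of the heat-shock element (6.69% of promoters), was matched in Jun (−128) and in Fosl2 (−244). Neither TGANTCA, a short form of the AP-1 element (6.75% of promoters), nor a CArG box (1.47%) was matched in the window of any member. Only these exact patterns were searched, so that variant sites and sites further upstream would be missed. Both strands were searched, and TGACGTCA contains TGACG.

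Samples held 1152702 to 8670570 counts (median 5327351), fewest in thymus replicate 2. Levels are given as CPM, counts scaled to a common library size after TMM normalization, on which 3 counts, the limit that a count of 0 allows, correspond to between 0.297 and 2.21 CPM across the samples. This covers counting error only. Of the 10 members, 8 passed the filter on low counts and 2, Atf3 and Batf3, did not. All 9 markers of iNKT cells had counts in every tissue, with a summed level between 3413 and 5744 CPM. Of the defining markers of other cells, Ly6g had no counts, neutrophil markers summed to at most 3.36 CPM in spleen and had no counts in LNs, and 3 of 6 stromal markers (Col3a1, Pdgfrb, Pdpn) had no counts in any sample. B cell, myeloid, red cell and other stromal markers did have counts, and their sums are given by tissue below. mLN replicate 2 stood apart within its tissue in several members, and results that rest on it or on thymus replicate 2 are given without them below.

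In LNs (the mean of mLN and iLN, 7 samples) against spleen and thymus (8 samples), 4 of the 8 members tested were higher and none was lower. These were Fos, Fosb, Jun and Junb. Fos and Fosb passed the filter on low counts only through LN samples. A gene that passes in this way can only come out higher in LNs. The count of called members and their median therefore follow in part from the filter, also in the comparisons with thymus and with spleen below. Over all 13600 genes tested, 1.72% were called in either direction and 0.934% were called higher in LNs. Calls here and below needed an adjusted p (Benjamini-Hochberg) under 0.01 in edgeR's quasi-likelihood test, with tissue and batch as factors, and a fold change over 1.5. The median log2 fold change of the 8 members was 1.42, beside 0.02 for all genes tested. The members were chosen with earlier results of these data known. This median and the count called therefore describe the list and are no test of it. By size of the change, Fos ranked 2 and Fosb 7 among the 127 genes called higher in LNs, with Jun at 23 and Junb at 51. The sort was on bulk cells, where a larger share of cells that express a gene and more mRNA per cell cannot be told apart.

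**Figure D1:**
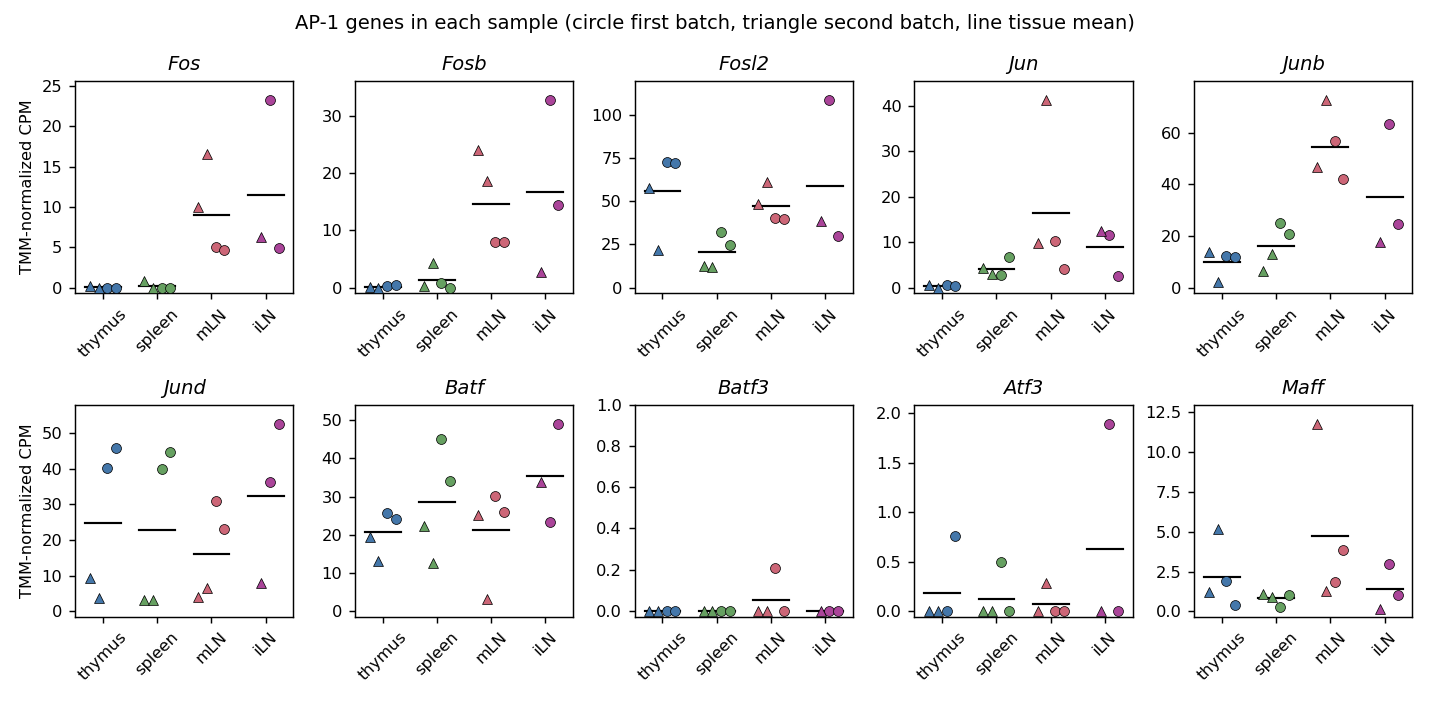
TMM-normalized CPM (y axis, linear, its own range in each panel) of the 10 AP-1 genes in each sample of thymus, spleen, mLN and iLN. Circles are samples of the first batch, triangles of the second, and lines are tissue means. Fos was between 4.62 and 23.3 CPM in the LN samples and at most 0.888 CPM elsewhere, whereas Jund separated by batch rather than by tissue.

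Fos (ENSMUSG00000021250, GRCm38 chromosome 12, 85473890 to 85477273, plus strand) encodes the prototype Fos protein. It was nearly absent outside the LNs. In thymus it was at 0.247 CPM in replicate 1, from 2 counts, and at 0 in replicates 2, 3 and 4. In spleen it was at 0.888 CPM in replicate 1, from 9 counts, and at 0 in the other 3 samples. In mLN it was at 9.98, 16.5, 4.99 and 4.62 CPM in replicates 1 to 4, and in iLN at 6.28, 23.3 and 4.96 CPM in replicates 2 to 4. Every LN sample lay above every spleen and thymus sample, a separation that 0.294% of the genes tested showed in this direction and that no other member showed. The log2 fold change of LNs against spleen and thymus was 6.15 (SE 0.82, edgeR adjusted p = 0.000149). Because Fos was at or near 0 in the reference tissues, this fitted value depends on the prior count of the model. Summed over samples, mLN held 239 counts and thymus 2, a ratio of CPM of 89.0 with an exact 95% counting interval of 24.4 to 739, and the ratio of mLN to spleen was 27.7 (14.3 to 61.3). For iLN the ratios were 91.3 to thymus (24.9 to 761) and 28.4 to spleen (14.6 to 63.3). These counting intervals leave out the spread between samples.

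Fosb (ENSMUSG00000003545, chromosome 7, 19302696 to 19310051, minus strand) encodes a second Fos protein with a transactivation domain. In thymus it was at 0.123, 0, 0.276 and 0.379 CPM in replicates 1 to 4, and in spleen at 0.296, 4.36, 0.748 and 0 CPM. In mLN it was at 23.99, 18.6, 7.91 and 7.90 CPM, and in iLN at 2.69, 32.8 and 14.4 CPM in replicates 2 to 4. All LN samples were above all thymus samples and all mLN samples were above all spleen samples, but iLN replicate 2 fell below spleen replicate 2. The change in LNs was 4.89 on the log2 scale (SE 0.78, edgeR adjusted p = 0.000752). The ratio of CPM was 73.0 between mLN and thymus (exact 95% counting interval 28.3 to 269) and 11.7 between mLN and spleen (8.25 to 17.0). These counting intervals leave out the spread between samples, and spleen replicate 2 held 29 of the 35 spleen counts. With that spread, mLN against spleen was at 3.44 on the log2 scale (95% interval 1.62 to 5.27) and was not called.

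Fosl2 (ENSMUSG00000029135, chromosome 5, 32135801 to 32157842, plus strand) encodes FRA2, a Fos protein that lacks the strong transactivation domain and is induced more slowly. Its mean was lowest in spleen. In thymus it was at 57.5, 22.1, 72.4 and 71.9 CPM in replicates 1 to 4, and in spleen at 12.7, 11.9, 32.4 and 24.8 CPM. It was at 48.6, 61.1, 40.2 and 39.9 CPM in mLN, and in iLN at 38.8, 109 and 29.6 CPM in replicates 2 to 4. The mLN samples did not overlap spleen, while thymus overlapped mLN and iLN. LNs against spleen and thymus gave 0.67 (SE 0.28, edgeR adjusted p = 0.213), which was not called.

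Jun (ENSMUSG00000052684, chromosome 4, 95049034 to 95052222, minus strand) is a gene of 1 exon that encodes c-Jun, the main partner of Fos. Its lowest values were those of thymus. In thymus it was at 0.617, 0, 0.551 and 0.379 CPM in replicates 1 to 4, from 9 counts in all, and in spleen at 4.24, 3.01, 2.74 and 6.71 CPM. In mLN it was at 9.73, 41.4, 10.2 and 4.05 CPM, and in iLN at 12.4, 11.6 and 2.57 CPM in replicates 2 to 4. Thymus lay below every other sample, whereas spleen overlapped both LNs. The change in LNs against spleen and thymus was 3.003 (SE 0.55, edgeR adjusted p = 0.00277). It was 2.69 without iLN replicate 3 (adjusted p = 0.0110) and 2.479 without mLN replicate 2 and thymus replicate 2 (adjusted p = 0.0127), and was then no longer called. The antisense gene Junos, which shares 689 bases with Jun, held 17 counts over all samples beside 673 for Jun.

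Junb (ENSMUSG00000052837, chromosome 8, 84974484 to 84978718, minus strand), also of 1 exon, encodes a Jun protein with weaker transactivation than c-Jun. In thymus it was at 13.8, 2.21, 12.4 and 11.8 CPM in replicates 1 to 4, and in spleen at 6.42, 12.9, 24.9 and 20.9 CPM. In mLN it was at 46.8, 72.7, 56.8 and 42.2 CPM, and in iLN at 17.8, 63.4 and 24.6 CPM in replicates 2 to 4. All mLN samples were above all spleen and thymus samples, and iLN was above thymus but overlapped spleen. LNs were higher by 1.73 on the log2 scale (SE 0.32, edgeR adjusted p = 0.00334). The call was lost without iLN replicate 3 (1.42, adjusted p = 0.0148), without thymus replicate 3 (1.72, adjusted p = 0.0114), without thymus replicate 4 (1.71, adjusted p = 0.0117), and without mLN replicate 2 and thymus replicate 2 together (1.46, adjusted p = 0.0132). Junb shares 351 bases with Prdx2 on the opposite strand (2911 counts over all samples, 2407 for Junb), and the libraries do not mark strand, so reads from the shared stretch cannot be told apart.

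Jund (ENSMUSG00000071076, chromosome 8, 70698949 to 70700616, plus strand) encodes the Jun protein that is usually present in unstimulated cells. Its level followed the batch. In the first batch it was between 23.1 and 52.7 CPM (median 40.0, 8 samples) and in the second between 3.06 and 9.38 CPM (median 4.15, 7 samples), with no overlap between batches in any tissue. The batch term of the model was 2.80 on the log2 scale, or 6.98-fold (SE 0.28, edgeR adjusted p = 8.17e-06). Of all genes tested, 3.82% were called between batches and 1.07% were above the second batch in every sample of the first, and no other member was called between batches. Between tissues Jund differed by 0.00 on the log2 scale in LNs against spleen and thymus (edgeR adjusted p = 0.999), and in DESeq2 by −0.00166 (SE 0.263). The antisense gene Gm11175, which shares 919 bases with Jund, was likewise at 8.09 to 26.2 CPM in the first batch and at 1.31 to 2.07 CPM in the second, and reads of both genes cannot be told apart without strand. The share of rRNA in the counts was 22.5% to 48.1% in the first batch and 17.6% to 29.8% in the second, and its part in the Jund result was not tested.

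Batf (ENSMUSG00000034266, chromosome 12, 85686669 to 85709087, plus strand) encodes an AP-1 protein without a transactivation domain that is needed for IL-17-producing T cells. In thymus it was at 19.5, 13.2, 25.6 and 24.1 CPM in replicates 1 to 4, and in spleen at 22.2, 12.6, 45.1 and 33.97 CPM. Values in mLN were 25.2, 3.34, 30.2 and 26.0 CPM, and in iLN at 33.7, 23.3 and 49.1 CPM in replicates 2 to 4. All 4 tissues overlapped, and mLN replicate 2, the sample with the highest Jun and Junb, had the lowest Batf of the 15. The difference of LNs from spleen and thymus was 0.15 (SE 0.32, 95% interval −0.48 to 0.78, edgeR adjusted p = 0.874).

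Maff, Atf3 and Batf3 were low. Maff (ENSMUSG00000042622, chromosome 15, 79346621 to 79359076, plus strand), a small Maf protein without a transactivation domain, was between 0.379 and 5.15 CPM in thymus, 0.249 and 1.09 in spleen, 1.31 and 11.8 in mLN, and 0.179 and 2.98 in iLN. mLN replicate 1 alone held 91 of its counts, and LNs differed from spleen and thymus by 1.11 (SE 0.76, edgeR adjusted p = 0.495). Atf3 (ENSMUSG00000026628, chromosome 1, 191170296 to 191218039, minus strand), a stress-induced factor of the CREB/ATF group that dimerises with Jun proteins, had 15 counts in all 15 samples together. They were 7 in iLN replicate 3, 4 in thymus replicate 4 and 2 each in spleen replicate 3 and mLN replicate 2. Batf3 (ENSMUSG00000026630, chromosome 1, 191097847 to 191108945, plus strand), known for its role in dendritic cells, had 1 count, in mLN replicate 3. At this depth no difference between tissues was detectable for Atf3 and Batf3.

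The 6 pairs of tissues were then compared in the same fit, in which pairs that share a tissue are not independent. Against thymus, mLN had 4 called members and iLN 3, where 0.816% and 0.875% of all genes were called higher. In mLN these were Jun at 4.93 (SE 0.85, edgeR adjusted p = 0.00178), Junb at 2.43 (SE 0.46, adjusted p = 0.00389), Fos at 6.26 (SE 1.19, adjusted p = 0.00430) and Fosb at 5.75 (SE 1.18, adjusted p = 0.00767). In iLN they were Fos at 7.23 (SE 1.27, edgeR adjusted p = 0.00245), Fosb at 6.34 (SE 1.23, adjusted p = 0.00573) and Jun at 4.26 (SE 0.86, adjusted p = 0.00717), while Junb was at 1.56 (SE 0.48, adjusted p = 0.0885). The other members were not called. In mLN against thymus they were at 1.23 (Maff), −0.02 (Batf), −0.13 (Fosl2) and −0.54 (Jund), and in iLN against thymus at 0.70 (Batf), 0.05 (Jund), −0.04 (Fosl2) and −0.21 (Maff). All samples of mLN, and likewise of iLN, lay above all thymus samples for each of Fos, Fosb, Jun and Junb, where 3.82% of all genes tested did so for mLN and 6.20% for iLN. The calls were close to the threshold: the count for mLN fell to 1 without any 1 of the 4 thymus samples or mLN replicate 2, and to 2 without mLN replicate 3. For iLN it fell to 0 without thymus replicate 1, 3 or 4 or iLN replicate 3, and to 1 without thymus replicate 2 or mLN replicate 3.

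Against spleen, Fos was the 1 member called in iLN (6.05, SE 1.13, edgeR adjusted p = 0.00392), where 0.963% of all genes were called higher. The Fos call was lost without thymus replicate 1, spleen replicate 2, 3 or 4, or iLN replicate 3. Without spleen replicate 2 Fosb was called in its place, and each of the others left 0 called members. Fosl2 was at 1.48 in this comparison (SE 0.41, edgeR adjusted p = 0.0531) and Fosb at 4.03 (SE 1.12, adjusted p = 0.0512). Not called either were Jun (1.07), Junb (1.03), Maff (0.99), Jund (0.54) and Batf (0.32). In mLN against spleen edgeR called 0 of the 8 members, and 0.654% of all genes. There 6 members were at an unadjusted p under 0.05 in edgeR. DESeq2, which called 248 of the 13600 genes tested, called 3 members, Fos, Fosb and Junb. The edgeR values were 5.07 for Fos (SE 1.02, adjusted p = 0.0123), 1.90 for Junb (SE 0.45, adjusted p = 0.0384), 3.44 for Fosb (SE 0.93, adjusted p = 0.0807), 1.38 for Fosl2 (SE 0.40, adjusted p = 0.104), 1.75 for Jun (SE 0.69, adjusted p = 0.281) and 2.44 for Maff (SE 1.01, adjusted p = 0.313), with Batf at −0.40 and Jund at −0.05. For 5 members, Fos, Fosb, Fosl2, Junb and Maff, every mLN sample lay above every spleen sample, as did 3.04% of all genes tested. Without iLN replicate 2 or iLN replicate 3, which enter the shared fit, Fos was called in mLN against spleen and the count was 1.

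**Figure D2:**
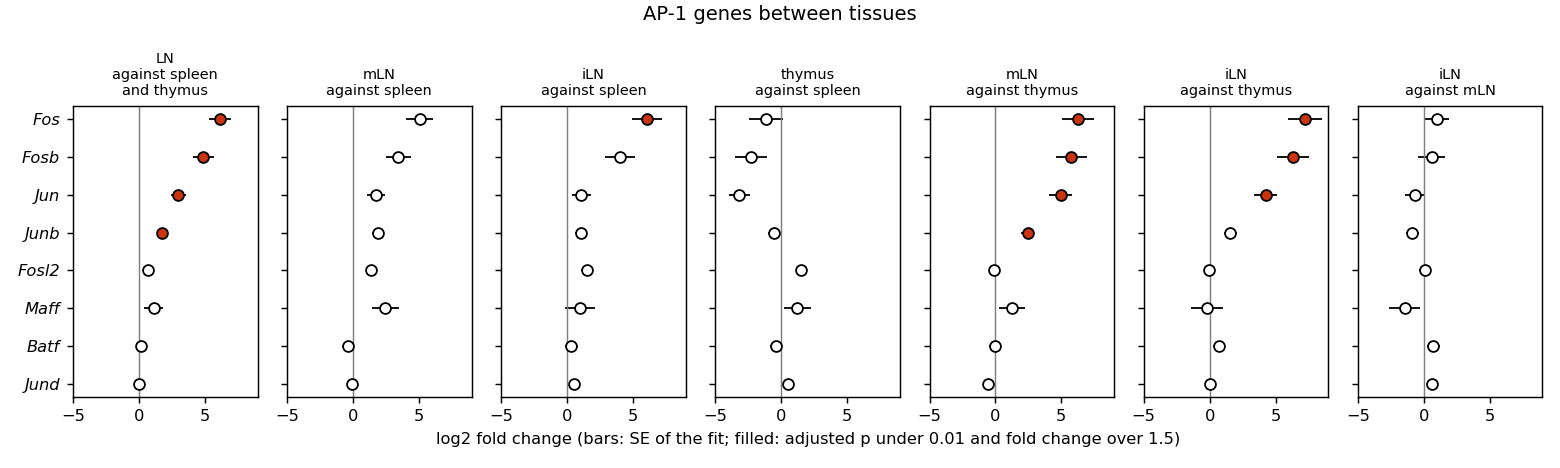
Log2 fold change (x axis) of the 8 AP-1 genes tested (y axis) in 7 comparisons of tissues, with bars for the SE of the fit and filled points for genes called. Fos, Fosb, Jun and Junb are filled in LNs against spleen and thymus and in mLN against thymus, and no gene is filled in mLN against spleen, thymus against spleen or iLN against mLN.

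Between the tissues that were not digested, edgeR called 0 of the 8 members in thymus against spleen (1.32% of all genes were called). Here 2 members were at an unadjusted p under 0.05 in edgeR. DESeq2, which called 387 of the 13600 genes tested, called both. Jun was at −3.18 in thymus (SE 0.82, edgeR adjusted p = 0.0443), and every spleen sample lay above every thymus sample, as in 4.24% of all genes tested. The spleen samples held 107 Jun counts and the thymus samples 9, a ratio of CPM of 8.50 (exact 95% counting interval 4.31 to 19.1). This interval leaves out the spread between samples, with which the 95% interval of the Jun change in thymus was −4.80 to −1.57. Fosl2 went the opposite way, at 1.51 in thymus (SE 0.39, edgeR adjusted p = 0.0452). The remaining values were −2.31 for Fosb, −1.19 for Fos, −0.53 for Junb, −0.38 for Batf, 0.49 for Jund and 1.204 for Maff. Neither tissue was digested. Between the digested tissues, iLN against mLN, 0 members were called in edgeR and in DESeq2, and 0 were at an unadjusted p under 0.05. Of all genes, edgeR called 0.471%, and DESeq2 called 276 of the 13600 tested. The intervals were wide: the difference of iLN from mLN was 0.97 for Fos (95% interval −0.81 to 2.76), 0.59 for Fosb (−1.38 to 2.55), −0.68 for Jun (−2.11 to 0.76) and −0.87 for Junb (−1.82 to 0.08). Maff was at −1.44, Fosl2 at 0.10, Jund at 0.59 and Batf at 0.72.

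Within batches the direction of Fos, Fosb, Jun and Junb in LNs against spleen and thymus was the same as in the pooled fit. In the first batch alone edgeR called 95 of the 13013 genes tested. The log2 fold changes there were 8.26 for Fos and 5.21 for Fosb, which edgeR called, and 2.21 for Jun (SE 0.68) and 1.47 for Junb (SE 0.30), which it did not. In the second batch alone they were 4.83 for Fos (SE 1.17), 3.85 for Fosb (SE 1.07), 3.74 for Jun (SE 0.79) and 1.80 for Junb (SE 0.54), and 0 members were called. This batch holds 7 samples, and edgeR called 2 of all genes in it. The p-values measure only the spread between these samples, which may be technical.

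On the scale of TPM, in which counts are divided by gene length so that genes can be compared, the summed level of the 10 genes was 44.8 to 98.9 in thymus, 53.0 to 123 in spleen, 128 to 148 in mLN and 112 to 192 in iLN. Of the LN samples only iLN replicate 2, at 112, fell below the highest spleen sample. Batf had the highest TPM of the 10 in 13 samples, and Junb in 2, mLN replicate 2 and iLN replicate 3. Of the summed TPM, Junb took 10.4% ± 5.47 in thymus, 19.5% ± 11.7 in spleen, 34.4% ± 7.90 in mLN (SD, n = 4 each) and 18.8% ± 7.65 in iLN (SD, n = 3). Batf took 46.6% ± 11.9 in thymus, 52.6% ± 12.7 in spleen, 26.4% ± 14.8 in mLN and 41.1% ± 18.9 in iLN, with the same n. Of the 8 genes that passed the filter, the order of mean TPM in thymus was Batf (32.4), Jund (18.4), Fosl2 (13.0), Junb (7.87), Maff (1.78), Jun (0.145), Fos (0.125) and Fosb (0.0625), with Atf3 (0.123) between the last pair and Batf3 at 0. In mLN it was Junb (46.7), Batf (35.8), Fosl2 (16.5), Jund (14.2), Jun (7.16), Fos (6.16), Fosb (5.59) and Maff (3.503), with Batf3 (0.108) and Atf3 (0.0575) below them. Among the 8, the sample ranges of each gene and of the next in order overlapped in both tissues. Within single samples, Batf was above Jund, Fosl2 above Junb and Maff above Jun in every thymus sample. In mLN, Fosb was above Maff in every sample. The other neighbours did not keep the same order in all samples, and no difference between genes was tested.

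**Figure D3:**
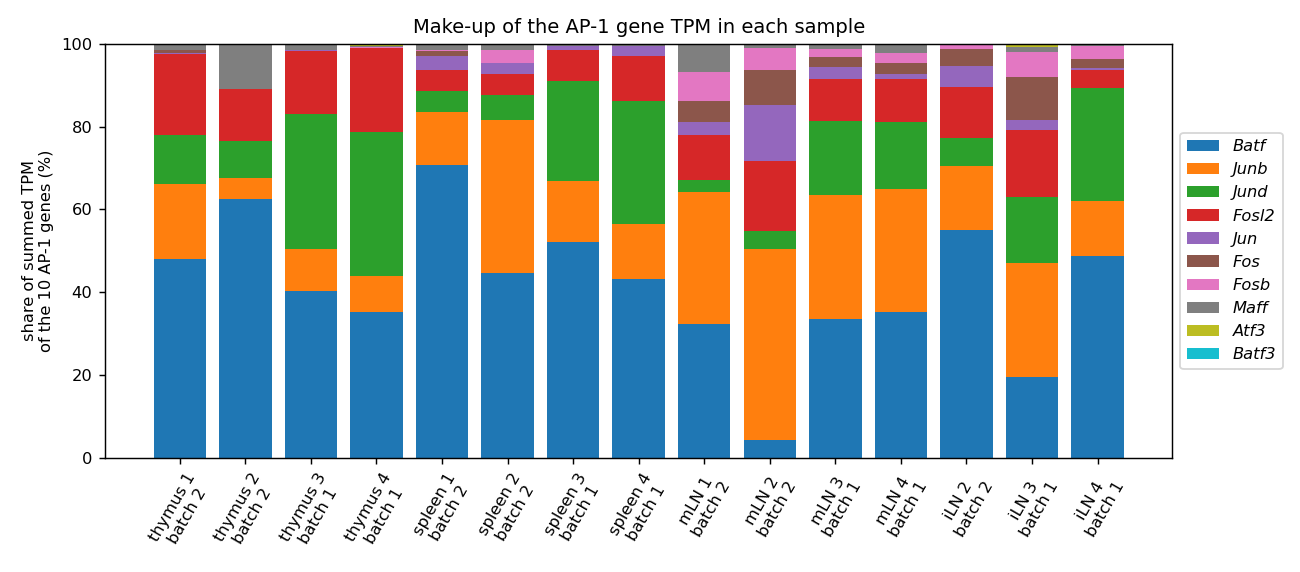
Share of the summed TPM of the 10 AP-1 genes taken by each gene (y axis, percent, stacked to 100) in each of the 15 samples (x axis, with its batch). The Batf share was 4.33% in mLN replicate 2 and between 19.6% and 70.7% in the other samples, and Fos and Fosb together are visible as bands in the LN samples.

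The other genes of the pathway were read from lists that were also chosen with earlier results of these data known. Of 16 other basic leucine zipper genes, 9 were tested, and 0 were called in LNs against spleen and thymus by edgeR and by DESeq2, with 3 at an unadjusted p under 0.05 in edgeR. Maf, which drives IL-4 and IL-17 programmes in T cells, was at 0.56 (SE 0.12, edgeR adjusted p = 0.00979), a 1.47-fold change and so not called, and was higher in iLN than in spleen, thymus and mLN, where it was called each time. Bach2, a repressor that competes with AP-1 for sites, was at 0.50 (SE 0.19, edgeR adjusted p = 0.147). Of 22 kinases and factors upstream of AP-1 genes, 20 were tested and 0 were called by either tool, with 6 at an unadjusted p under 0.05 in edgeR. Their smallest adjusted p-values were those of Elk4 and Elk3, ternary complex factors that act with SRF, at 0.41 (SE 0.09, edgeR adjusted p = 0.0129) and 0.39 (SE 0.14, adjusted p = 0.129). Elk4 was called in mLN against spleen (0.72, SE 0.12, edgeR adjusted p = 0.00464). Of the 6 AP-1 partners tested, edgeR called 0, with 4 at an unadjusted p under 0.05, and DESeq2 called 1, Irf4. Irf4, the partner of BATF and Jun dimers, was at 0.97 (SE 0.26, edgeR adjusted p = 0.0372) and Nfatc3 at 0.33 (SE 0.09, adjusted p = 0.0455).

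Of 9 textbook AP-1 targets, 5 were tested, with 1 higher and 1 lower in LNs against spleen and thymus. Il2ra, the IL-2 receptor α chain, was higher by 2.09 (SE 0.17, edgeR adjusted p = 1.60e-06). It was at 5.15 to 14.9 CPM in thymus, 103 to 155 in spleen, 86.1 to 116 in mLN and 192 to 314 in iLN. Spleen and mLN overlapped, so that thymus stood apart. Fasl, a death ligand, was lower, at −1.076 on the log2 scale (SE 0.15, edgeR adjusted p = 0.000239), with iLN lowest at 29.4 to 30.9 CPM. Il4, Ifng and Tnf were not called, and their log2 fold changes were 0.07, −0.65 and −0.58.

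Of 24 other immediate-early genes, 23 were tested and 2 were higher in LNs, Nr4a1 and Dusp1, with none lower. At an unadjusted p under 0.05 in edgeR there were 11, and the median log2 fold change of the 23 was 0.39. Nr4a1, an orphan nuclear receptor induced by TCR signals, was at 11.3 to 38.9 CPM in the LN samples and at 0.451 to 7.93 CPM in spleen and thymus, without overlap (3.21, SE 0.45, edgeR adjusted p = 0.000229). Dusp1, a phosphatase that switches off MAP kinases, was at 26.2 to 177 CPM in LNs, highest in mLN replicate 2, and at 5.15 to 25.7 CPM elsewhere (2.06, SE 0.34, edgeR adjusted p = 0.00124). The remaining 21 were not called in edgeR. DESeq2, which called 478 of the 13600 genes tested, called 5 of the 23, Nr4a1, Dusp1, Nr4a3, Egr1 and Ppp1r15a. The last 3, named after their values were seen, were in edgeR at 1.84 for Nr4a3 (SE 0.44, adjusted p = 0.0196), 0.69 for Egr1 (SE 0.15, adjusted p = 0.0120) and 1.74 for Ppp1r15a (SE 0.41, adjusted p = 0.0174). Egr1 was at 77.2 to 90.3 CPM in thymus, within the LN range of 56.4 to 127, and at 34.6 to 48.6 CPM in spleen. Between thymus and spleen, neither digested, edgeR called 1 of the 23 and DESeq2 6, Egr1 among the latter. Of all 13600 genes tested, edgeR called 1.32% and DESeq2 387 genes in this comparison. Of 11 heat-shock genes, which respond to warming, 8 were tested. In LNs against spleen and thymus edgeR and DESeq2 called 0 of them, 1 was at an unadjusted p under 0.05 in edgeR, and their median was 0.17. Against spleen edgeR called 0 in mLN, in iLN and in thymus, with 5, 2 and 3 at an unadjusted p under 0.05 and medians of 0.47, 0.24 and 0.44, and DESeq2 called Hsp90ab1 in each. In LNs against spleen and thymus Hsp90ab1 was at 0.47 (SE 0.11, edgeR adjusted p = 0.0224) and Dnajb1 at 0.49 (SE 0.28, adjusted p = 0.384). The strongly inducible Hspa1a and Hspa1b were at most at 3.37 and 3.11 CPM in any sample. The part of the digestion in these results cannot be told apart from that of the tissue.

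**Figure D4:**
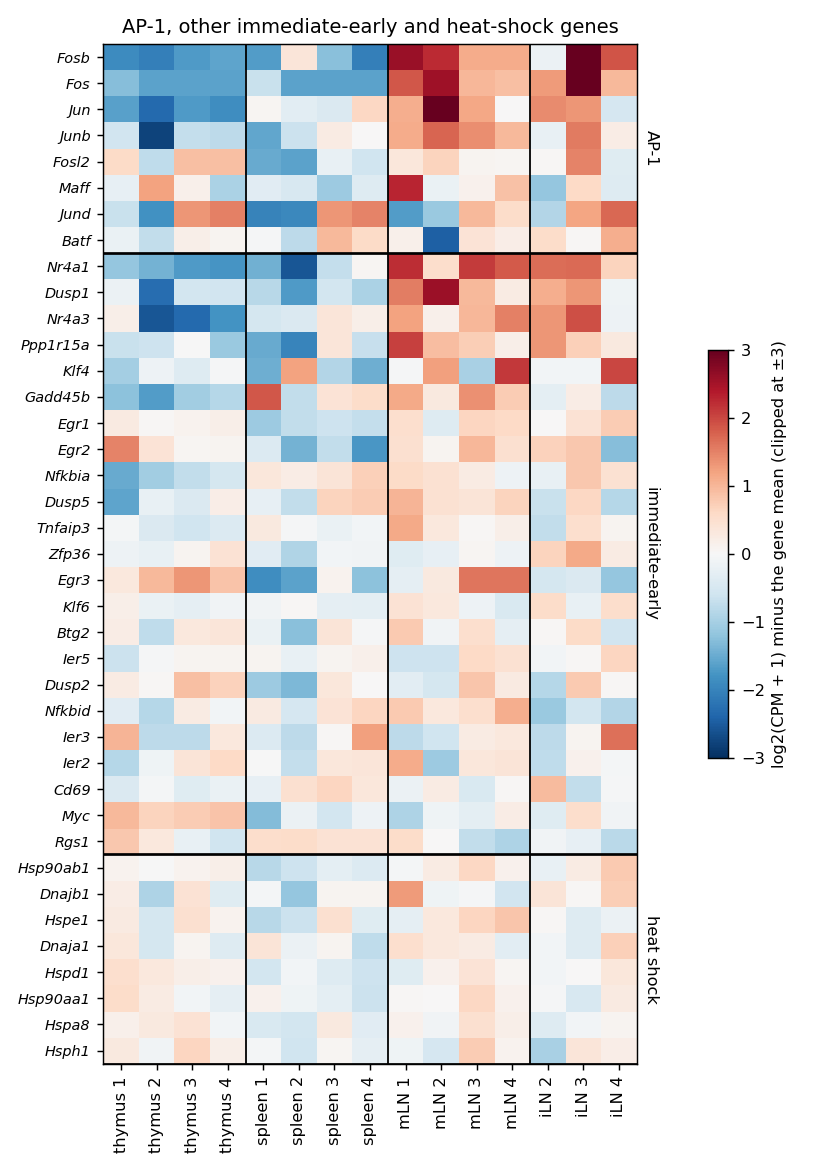
Log2(CPM + 1) of each gene minus its mean over the 15 samples (colour, clipped at ±3) for the 8 AP-1 genes tested, 23 other immediate-early genes and 8 heat-shock genes (rows) in each sample (columns). Fosb, Fos, Jun, Junb, Nr4a1 and Dusp1 are mostly red in mLN and iLN and blue in thymus and spleen, and edgeR called none of the 8 heat-shock genes.

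Markers of iNKT subsets moved with the tissues too. All 5 NKT17 markers tested were higher in LNs against spleen and thymus, and the 6 listed summed to 9.87 to 28.7 CPM in thymus, 6.10 to 13.5 in spleen, 39.7 to 71.4 in mLN and 271 to 579 in iLN. The largest changes were those of Ccr6 (5.84, SE 1.01, edgeR adjusted p = 0.00171), Sdc1 (4.43, SE 0.39, adjusted p = 1.85e-06) and Il23r (3.87, SE 0.64, adjusted p = 0.00117). Ccr6 was at 0, 21.5, 1.04 and 0.578 CPM in mLN replicates 1 to 4 and at 27.6 to 61.1 CPM in iLN. Of the 5 tested, edgeR called 2 in mLN against spleen and 1 against thymus, and all 5 in iLN against each. Of 5 NKT1 markers 3 were lower in LNs, Klrb1c, Tbx21 and Il2rb, and of 5 NKT2 markers 2 were higher, Ccr4 and Zbtb16. Of 5 red cell markers 2 were lower, the haemoglobin genes Hbb-bs and Hbb-bt, and the 5 summed to 1.71 to 14.69 CPM in thymus, 23.999 to 117 in spleen, 0.624 to 2.31 in mLN and 0.513 to 4.84 in iLN. For B cell, myeloid and dendritic, stromal and immature thymocyte markers, edgeR called 0 in LNs against spleen and thymus, with 0 of 4, 1 of 3, 1 of 1 and 1 of 4 tested at an unadjusted p under 0.05, and DESeq2 called 0, 0, 1 and 1. B cell markers summed to 77.2 to 142 CPM in thymus, 196 to 324 in spleen, 139 to 202 in mLN and 187 to 219 in iLN, and myeloid and dendritic markers to 14.9 to 39.7, 36.2 to 67.9, 15.6 to 52.4 and 30.3 to 54.2 CPM. Stromal markers summed to 26.6 to 56.9 CPM in thymus, 34.3 to 57.1 in spleen, 67.9 to 102 in mLN and 66.02 to 76.1 in iLN, and Pecam1, which takes part in this sum, is also expressed by lymphocytes. The part of these cells in the AP-1 results was not tested.

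Genes with the pattern most like those of Fos, Jun and Batf were ranked by the root-mean-square difference of log2(CPM + 1), each gene centred on its own mean, over the 15 samples. For Fos they were Fosb (0.789), Dusp1 (0.820) and Ifngr2 (0.834), beside a spread of Fos around its own mean of 1.65. For Jun they were Cep290 (0.766), Deptor (0.776) and Gm43221 (0.835), with a spread of 1.44. For Batf they were Sap30bp (0.443), Gps2 (0.457) and Recql5 (0.458), with a spread of 0.824. Batf and these 3 genes had their lowest value of all 15 samples in mLN. With a pseudocount of 0.1 the nearest genes were Gucy1a1, Fosb and Klf11 for Fos, Cep290, Gm43221 and Il2ra for Jun, and Sap30bp, Rad17 and Gps2 for Batf, so that Dusp1 and Ifngr2 were replaced.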

How the data were processed

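RNA of sorted iNKT cells was sequenced in 15 samples, labelled as polyA RNA, as paired-end reads of 101 bp, from a library kit that does not mark strand. The authors trimmed reads with Cutadapt 1.7.1 (quality threshold 10) and quantified them with RSEM 1.2.31 and Bowtie2 2.2.9 against GRCm38. The expected counts that the authors deposited are RSEM's estimates of fragments per gene, without normalization, and split fragments that fit several genes among those genes. Also from the authors, the deposited TPM values divide these by effective length and scale them to a fixed sum. Effective length, and with it the TPM of Fosl2, also moves with the isoforms that RSEM assigned in a sample.

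Expected counts were rounded and filtered with filterByExpr of edgeR 4.0.16 (limma 3.58.1, R 4.3.3), leaving 13600 genes, and normalized by TMM (factors 0.755 to 1.18). edgeR's robust quasi-likelihood test had tissue and batch as factors over all 15 samples, and 7 contrasts were tested. SE was the log2 fold change divided by the root of F, which is unreliable where the fold change is near 0, and 95% intervals are 1.96 SE. Groups came from the labels. Between replicates, chi-squared per degree of freedom was 7.33 to 232. The 10 members and all lists were chosen with earlier results of these data known. By rule, every member that passed the filter was named in every comparison, and of each other list up to 3 called genes per direction in LNs against spleen and thymus or, if none was called, the 2 with the smallest adjusted p-value, plus the 3 genes most like Fos, Jun and Batf. Sequences and start sites are from RefSeq, in which all 10 members matched. Summaries used pandas 2.3.3, numpy 2.4.6 and scipy 1.17.1 in Python 3.11.15, and plots matplotlib 3.10.9. The scripts were tested on simulated data.

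The tests were repeated with DESeq2 1.42.0, with RLE factors, without a filter or with a minimum of 10 counts in all samples, without batch, with a replicate block, with only the tissues compared, without rRNA genes, with thinned libraries, in each batch alone and without each sample. Leaving out mLN replicate 2 and thymus replicate 2 together, and the test of the batch term, were alternatives chosen after seeing the data. Precision at the depths given covers counting error only. Protein sequences were not used here.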

Additional observations from a re-analysis of the deposited data

Results flagged for a closer look

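Of 28 groups of 4 samples, 7 had a highest sample that stood apart. Its distance from the next made up more of the range than Dixon's 95% critical value for 4 samples. A group with counts in only 1 sample passes this limit by construction, so the number flagged cannot be set against a rate expected by chance. Jun in mLN was at 41.4 CPM in replicate 2, from 285 counts, with the other 3 samples at 10.2 CPM or less. This sample also had the lowest Batf and the highest Dusp1 of all. The remaining 6 rest on few counts, with the other 3 samples of the tissue at 0: Fos in thymus replicate 1 (0.247 CPM, 2 counts) and in spleen replicate 1 (0.888 CPM, 9 counts), Atf3 in thymus replicate 4 (0.759 CPM, 4 counts), spleen replicate 3 (0.498 CPM, 2 counts) and mLN replicate 2 (0.290 CPM, 2 counts), and Batf3 in mLN replicate 3 (0.208 CPM, 1 count).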

How the results depend on the processing

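In LNs against spleen and thymus 4 members were called. The count was 4 with DESeq2, RLE normalization, no filter, no batch or without rRNA genes, 3 with thinned libraries (without Jun), and 2 (Fos and Fosb) in the first batch alone, without iLN replicate 3, or without mLN replicate 2 and thymus replicate 2. It was 0 in the second batch alone, and 0 with at least 10 counts in every sample, which left 2 members to test by construction. Leaving out each sample gave 2 to 4. Over all alternatives the adjusted p-value ranged from 2.14e-14 to 0.167 for Fos, from 4.29e-15 to 0.249 for Fosb, from 9.85e-07 to 0.128 for Jun and from 6.21e-09 to 0.279 for Junb. Over all genes, 234 were called, 478 in DESeq2 and 532 with no filter.

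In mLN against spleen (0 called) the count was 3 in DESeq2, 4 with no filter, and 0 to 1 when each sample was left out. In iLN against spleen (1 called) it was 3 in DESeq2 and with no filter, and 0 with at least 10 counts, no batch, only these tissues, or either batch alone, and 0 to 1 without each sample. In thymus against spleen (0 called) it was 2 in DESeq2 and with no filter and 1 (Fosl2) with only these tissues. In mLN against thymus (4 called) it was 0 with at least 10 counts, in either batch alone, or without mLN replicate 2 and thymus replicate 2, and 1 to 4 without each sample. In iLN against thymus (3 called) it was 1 with only these tissues or in the first batch alone, 0 with at least 10 counts, in the second batch alone or without both samples, and 0 to 3 without each sample. In iLN against mLN it was 0 under all alternatives. Of all 13600 genes, DESeq2 called 248 in mLN against spleen, 556 in iLN against spleen and 387 in thymus against spleen. With no filter, where 24238 genes were tested, these numbers were 273, 544 and 393. Other than where stated, the cause was not tested.

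Same-numbered samples of different tissues had a mean correlation of deviations of 0.138 (15 of 21 pairs over 0.1, lowest 0.000402), beside 0.125 for other samples of the same batch, so that the numbers were not taken as pairs. With the replicate block the counts were 3 in LNs against spleen and thymus (Jun lost, 2.68, edgeR adjusted p = 0.0163), 1 in mLN against spleen, 1 in iLN against thymus and 3 in mLN against thymus.

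Changes of sign concerned members that were not called. Jund in LNs against spleen and thymus was −0.00166 in DESeq2, −0.0653 without batch, −1.20e-05 with the replicate block, −0.135 when thinned, −0.310 in the first batch, −0.173 without both samples, and −0.122 to 0.144 without each sample. Batf there was −0.0803 to 0.314 without each sample, and Maff −0.616 in the second batch. Fos in thymus against spleen was 0.0428 when thinned and −3.09 to 2.25 without each sample, and had no value in the first batch, where both tissues were at 0. In iLN against mLN, Fos was −1.09 and Fosb −2.99 in the second batch, −0.396 to 1.80 and −0.389 to 1.54 without each sample, and Jun was 0.131 without both samples and −1.18 to 0.134 without each sample. The shallowest library, thymus replicate 2, limits what can be seen of members near 0.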
